A study of Mus musculus with 15 samples.

Results

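The genes described here encode the microtubule motors and tubulins of the embryonic mouse lens. The rule took every gene symbol that begins with Kif (kinesins and kinesin-binding proteins), Dync (cytoplasmic dynein), Dctn (dynactin), or Tub followed by a, b, d, e or g (tubulins and the gamma-tubulin complex). The rule found 73 of the 14615 symbols in the expression table, and the rule itself uses only names. They fall by known role into 13 mitotic kinesins, 18 transport kinesins, 9 ciliary and other kinesins, 7 cytoplasmic dynein subunits, 6 dynactin subunits, 11 alpha and beta tubulins, and 9 gamma, delta and epsilon tubulins and gamma-tubulin complex proteins. Of these, 71 were tested among 14532 genes. Kif17 and Kif19a did not reach 1 FPKM in at least 3 libraries and were not tested. In all 15 libraries, 65 members were at 1 FPKM or more. Tubb1, Tubd1, Tubg2, Kif6, Kif26a and Dync1i1 were tested but fell below that level in at least 1 library. Kif1bp and Kifap3 are counted with the kinesins by their symbols, although they bind kinesins and are not motors themselves.

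All 15 libraries came from wild-type C57BL/6NTac mice, with no mutation or treatment in any group. Lenses were microdissected at 4 stages named by embryonic day (E), with 3 libraries per stage. Each library was a pool, of 50 lenses at E10.5, of 29 at E12.5, of 18 at E14.5 and of 17 for E16.5. A further 3 libraries of whole embryo, whose labels span E10.5 to E12.5, are the whole-body reference, and the labels do not say how the days were combined. A comparison of E14.5 or E16.5 lens with whole body therefore differs in both tissue and age. By the labels, libraries of the same group are biological replicates. Values are FPKM (fragments scaled by transcript length and by library), and can be compared between genes. The read depth is unknown. Log2 fold changes are on the log2(FPKM + 1) scale, which understates the change of low genes, and are given as estimate ± SE. Adjusted p values are from limma with Benjamini-Hochberg adjustment over all 14532 genes, and a gene is said to have risen or fallen only at an adjusted p under 0.05.

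Kinesins and dynein walk along microtubules, the polymers of alpha and beta tubulin, and dynactin couples dynein to most of its cargo. Mitotic kinesins build and move the spindle and act in cytokinesis, and most are made by dividing cells, whereas transport kinesins carry vesicles, organelles and mRNA toward microtubule plus ends in cells of every kind. In the lens, the anterior epithelium keeps dividing, while fibre cells leave the cell cycle, elongate greatly and fill with crystallins, with microtubules running along their length.

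Libraries of 1 group correlated at r of 0.98 to 0.994 across genes, and libraries of different groups at 0.694 to 0.987. The summed FPKM of lens fibre markers ran from 173 to 283 at E10.5 and from 41456 to 51341 at E16.5, against 2.4 to 2.56 in whole body. The summed FPKM of 8 proliferation markers fell from 2129 to 2393 at E10.5 to between 489.8 and 678 at E16.5. Some early lens libraries also held markers of other cells. Periocular mesenchyme markers summed to 2147 FPKM in E10.5 replicate 3, against 294 and 300.4 in the other E10.5 libraries, and to 769.6 in E12.5 replicate 1, against 306 and 358. In a bulk sample, fewer cells of a type and less RNA per cell cannot be told apart. Crystallin mRNA takes up a growing share of the late libraries. When crystallins were dropped and the remaining totals set equal, the median log2 fold change of all genes at E16.5 against E10.5 went from -0.01 to -0.39 (genes shifted by a median of -0.45), and the share of calls that were higher went from 50.3% to 30.6%. That scale is called crystallin-free below, and smaller rises are much reduced on it. Its values are given in parentheses or in their own sentence. Ratios and shares within a library do not depend on it.

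Across the 4 lens stages, 65 of the 71 tested members (moderated F test of limma) differed, where 77.3% of all genes did. At E16.5 against E10.5, 32 members (45.1%) rose and 28 (39.4%) fell, beside 37.2% and 36.7% of all tested genes (73.9% in either direction). With the crystallin-free scale 24 rose (33.8%) and 37 fell (52.1%), beside 23.5% and 53.5% of all genes there. The median change of all genes was -0.01, or -0.39 crystallin-free, and these values and shares also apply to each role list below. The roles separated. All 13 mitotic kinesins fell, 5 of 7 dynein subunits, 5 of 6 dynactin subunits and 10 of 17 tested transport kinesins rose, and the tubulins split by isotype.

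**Figure D1:**
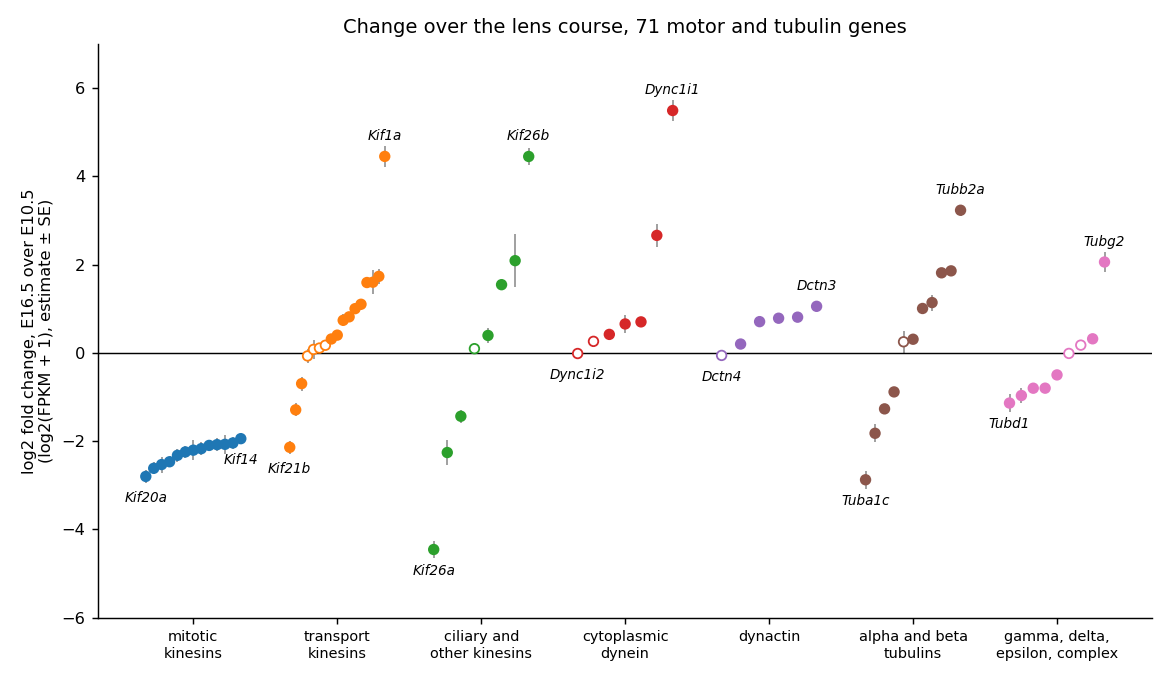
Log2 fold change at E16.5 against E10.5 (vertical axis, log2(FPKM + 1) scale, bars are ± SE) for the 71 tested members, grouped by role. Filled points passed an adjusted p under 0.05 and open points did not. All 13 mitotic kinesins lie below 0, between -1.94 and -2.80, while dynein and dynactin subunits that passed all lie above it.

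The mitotic kinesins had their largest median fall between E10.5 and E12.5. All 13 fell from E10.5 to E12.5 (median log2 fold change -1.20), 12 of 13 from E12.5 to E14.5 (-0.48) and 8 of 13 from E14.5 to E16.5 (-0.60). From E10.5 to E16.5 the median was -2.20, with a range from -1.94 (Kif14) to -2.80 (Kif20a), against a median of -0.01 over all tested genes. All 13 also fell on the crystallin-free scale and under quantile normalization (medians -2.63 and -2.30). The list was drawn up with earlier results known and counts the near copies Kifc1 and Kifc5b as separate members, so this count depends on the grouping. Kif2a, placed among the ciliary and other kinesins, was not called (0.10, adjusted p = 0.147, crystallin-free -0.37).

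Kif11, the bipolar motor that pushes spindle poles apart (chr19:37376403-37421859, plus strand, mm10), was the most abundant of them. It measured 182, 184 and 181 FPKM at E10.5, then 108, 83.7 and 77.2 by E12.5, then 63.2, 61.0 and 72.0 by E14.5, then 40.5, 36.4 and 49.8 at E16.5, and 152, 140 and 136 in whole body. Each E10.5 library was above every other library, and each E16.5 library below every other one. The change from E10.5 to E16.5 was -2.10 ± 0.12 (adjusted p = 7.65e-10). Kif20a, which acts in cytokinesis, had the largest fall, from 131, 146 and 131 FPKM at E10.5 through 58.5, 49.0 and 43.0 at E12.5 and 28.8, 25.9 and 37.0 at E14.5 to 18.0, 16.0 and 22.5 at E16.5 (-2.80 ± 0.14, adjusted p = 1.6e-10). Whole-body libraries measured 136, 124 and 122 FPKM for Kif20a, within the range of E10.5 or just below it.

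The chromosome-arm motors Kif4 and Kif22 fell to a similar extent. Kif4 went from 116, 124 and 117 FPKM at E10.5 to 50.5, 41.8 and 35.0, then 27.9, 25.3 and 37.4, then 19.2, 16.2 and 20.7 at E16.5 (-2.61 ± 0.14, adjusted p = 3.01e-10). Kif22 went from 114, 129 and 116 FPKM to 54.8, 48.2 and 36.8, then 28.3, 27.5 and 35.9, then 21.9, 13.9 and 25.96 (-2.53 ± 0.18, adjusted p = 8.65e-09). E14.5 and E16.5 did not overlap for Kif4 but came close to each other for Kif22, whose last step was not called. Kif2c, a depolymerase that corrects chromosome attachments, measured 95.6, 109 and 104 FPKM at E10.5 and 18.2, 15.8 and 19.5 at E16.5, with 45.4, 39.9 and 38.1, then 22.1, 25.3 and 33.3 between them (-2.47 ± 0.12, adjusted p = 1.46e-10).

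Kifc1, a minus-end motor that focuses spindle poles, stood furthest above whole body at E10.5. Its E10.5 libraries held 54.6, 50.5 and 48.0 FPKM and whole body 30.0, 26.7 and 22.9, a difference of 0.92 ± 0.21 (adjusted p = 0.00183). By E12.5 it was at 32.2, 22.0 and 19.2, by E14.5 at 15.2, 10.6 and 18.6, and by E16.5 at 15.1, 9.57 and 10.1 FPKM. Kifc5b is a near copy, with 98.2% identity over the coding sequence, so the division of reads between the pair is uncertain. At E10.5, Kif4 (0.71 ± 0.14), Kifc5b, Kif11 and Kif18b were also higher than whole body, Kif18a was lower (-0.43) and 7 of the 13 were not called. Lost on the crystallin-free scale were the calls of Kif11 (0.30, adjusted p = 0.0699) and Kif18b (0.30, adjusted p = 0.093). At E14.5 and E16.5 all 13 were lower than whole body.

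The fall went with that of the 8 proliferation markers, all of which fell at E16.5 against E10.5 with a median of -2.07. The summed mitotic kinesin FPKM was 0.477 ± 0.029 of the summed marker FPKM at E10.5, then 0.385 by E12.5, then 0.357 by E14.5, then 0.370 ± 0.020 at E16.5 (SD, n = 3), and 0.405 in whole body. The mean ratio was thus highest at E10.5 and lay between 0.357 and 0.385 at the later stages. Most mesenchyme, endothelial and blood cell markers were also higher at E10.5 than at E16.5, and the part of such cells in the fall was not tested. With E10.5 replicate 3 and E12.5 replicate 1 left out, all 13 still fell from E10.5 to E16.5 (median -2.21) and from E10.5 to E12.5, but from E12.5 to E14.5 only 3 of 13 were called lower (median -0.35) in place of 12.

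**Figure D2:**
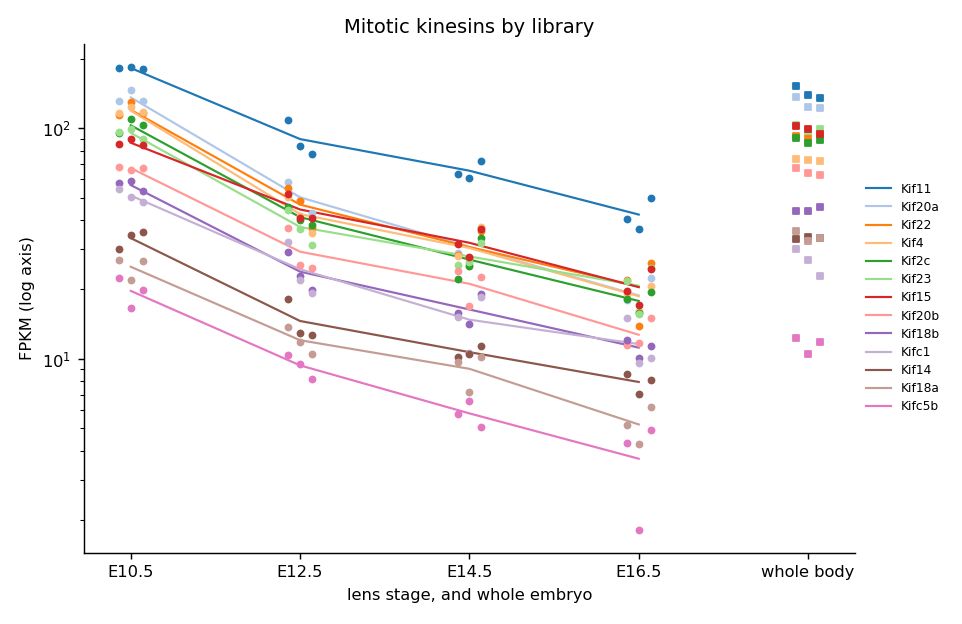
FPKM (log axis) of the 13 mitotic kinesins in each library. Dots are single lens libraries at the 4 stages, lines join the stage means, and squares are whole-body libraries. Every line falls from E10.5 to E16.5, and E16.5 lies below whole body for every gene.

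The promoters of some mitotic kinesins and of the transport kinesins described next are shown because their mRNA moved in opposite directions. The mitotic windows were picked for holding the elements below, so they are examples and no sample of the group. The element TTTGAA is known as a cell cycle homology region that represses late cell cycle genes in resting cells, and CCAAT boxes often stand near it. Each was searched on both strands (TTCAAA and ATTGG on the other strand) in the 250 bases before each RefSeq start (GRCm38.p6). RefSeq gave promoters for 56 of the 73 members. TTTGAA was found for 5 of 12 mitotic kinesins (41.7%), 1 of 12 transport kinesins (8.33%) and 18.3% of all 27025 genes. CCAAT was found for 8 of 12 mitotic kinesins (66.7%), 4 of 12 transport kinesins (33.3%) and 37.5% of all genes, and both elements for 3 of 12 (25%), 0 of 12 and 6.45%. Ciliary and other kinesins had TTTGAA in 2 of 7, CCAAT in 4 of 7 and both in 2 of 7 (28.6%). Those with both, Kif26b and Kif27, rose at E16.5 against E10.5. In the same order, dynactin had 1, 3 and 0 of 4, and dynein 0, 1 and 0 of 5. Alpha and beta tubulins had 1, 4 and 1 of 9, and the gamma-tubulin group 0, 1 and 0 of 7. All members had 17.9%, 44.6% and 10.7%. Such a match describes letters in a window and is not evidence of binding, and no binding was measured. The lines below give 100 bases per gene, 5′ to 3′ on the gene's strand, with matched elements in capitals. They are Kif11 (chr19:37376282-37376381, plus), Kif15 (chr9:122950971-122951070, plus), Kif18b (chr11:102925125-102925224, minus), Kifc1 (chr17:33890637-33890736, minus), Kifc5b (chr17:26916991-26917090, plus), Kif1a (chr1:93101927-93102026, minus), Kif3a (chr11:53567269-53567368, plus) and Kif1b (chr4:149307734-149307833, minus).
Kif11: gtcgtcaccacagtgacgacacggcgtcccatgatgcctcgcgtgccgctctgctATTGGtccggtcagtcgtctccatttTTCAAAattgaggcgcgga
Kif15: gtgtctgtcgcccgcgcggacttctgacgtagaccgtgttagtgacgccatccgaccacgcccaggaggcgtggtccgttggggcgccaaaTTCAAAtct
Kif18b: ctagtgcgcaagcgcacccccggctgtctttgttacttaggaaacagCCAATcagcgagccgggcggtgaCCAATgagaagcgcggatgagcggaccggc
Kifc1: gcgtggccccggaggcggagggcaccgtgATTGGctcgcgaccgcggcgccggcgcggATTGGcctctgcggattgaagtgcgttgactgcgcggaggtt
Kifc5b: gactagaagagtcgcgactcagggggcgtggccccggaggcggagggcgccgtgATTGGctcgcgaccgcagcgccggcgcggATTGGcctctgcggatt
Kif1a: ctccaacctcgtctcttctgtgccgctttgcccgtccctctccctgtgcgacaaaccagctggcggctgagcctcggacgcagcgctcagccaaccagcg
Kif3a: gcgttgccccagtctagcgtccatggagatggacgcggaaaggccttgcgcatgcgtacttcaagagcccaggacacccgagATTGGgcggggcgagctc
Kif1b: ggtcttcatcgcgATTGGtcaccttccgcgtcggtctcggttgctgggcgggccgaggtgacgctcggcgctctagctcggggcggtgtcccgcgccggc
The printed lines end at the base before the RefSeq start, except those of Kif15, Kifc1 and Kif1a. The exceptions end 11, 4 and 53 bases before it in that order, and each holds 25 bases of the GENCODE gene. In Kif11 the ATTGG began 45 bases and the TTCAAA 19 bases before the RefSeq start, and in Kif15 the TTCAAA also began 19 bases before it. Kif18b had a pair of CCAAT boxes, as did Kifc1 and its near copy Kifc5b on the other strand. The Kif1a window held neither element, though a downstream RefSeq start of Kif1a had a TTTGAA 44 bases before it. Kif3a and Kif1b each held an ATTGG and no TTTGAA.

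The transport kinesins were mixed, and their largest change was the rise of Kif1a. Of 17 tested, 10 rose at E16.5 against E10.5 (Kif1a, Kif1b, Kif3a, Kifc3, Kif13a, Kif3c, Kif21a, Kif5c, Kifap3 and Kif3b), 3 fell (Kif21b, Kif13b and Kif5a) and 4 were not called (Kif5b, Kif1c, Kif16b and Kifc2). The median was 0.40. On the crystallin-free scale 8 rose, 6 fell and the median was -0.07, beside 23.5%, 53.5% and -0.39 for all genes. The sign of the group's median thus depends on the scale, but it lay above the median of all genes on both. With crystallins left out, Kifap3 (-0.07) and Kif3b (-0.15) were not called, and Kif5b, Kif1c (-0.36) and Kif16b (-0.53) fell. The summed FPKM of all 18 was 895, 1070 and 1090 at E10.5, then 1264, 1256 and 1650 by E12.5, then 2010, 2435 and 1881 by E14.5, and finally 2378, 2825 and 2461 at E16.5, against 1286, 1251 and 1266 in whole body.

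Kif1a, a kinesin-3 motor of vesicles best known from axons (chr1:93015464-93101951, minus strand), measured 28.6, 56.5 and 48.8 FPKM at E10.5, 148, 176 and 276 by E12.5 and 719, 931 and 651 by E14.5, before reaching 885, 1145 and 877 at E16.5. Whole body held 55.9, 55.5 and 67.1 FPKM. Its levels overlapped whole body at E10.5 and lay above every whole-body library from E12.5 on. The rise was 2.14 ± 0.24 from E10.5 to E12.5 (adjusted p = 3.98e-06) and 1.97 ± 0.24 from E12.5 to E14.5 (adjusted p = 1.85e-05), and the last step of 0.34 ± 0.24 was not called (adjusted p = 0.434). From E10.5 to E16.5 it came to 4.45 ± 0.24 (adjusted p = 4.05e-10), a ratio of means of 21.7. It was 3.98 on the crystallin-free scale. The summed FPKM of 9 neuron markers stayed between 4.79 and 19.0 in the lens libraries against 854 to 934 in whole body, and all 9 were lower than whole body at each stage. From E10.5 to E16.5, 1 of them rose and 4 fell.

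The rise of Kif1a was spread over several transcripts. The assembled transcript ENSMUST00000112958 went from 2.30 to 386 FPKM (means of E10.5 and E16.5) and ENSMUST00000171556 from 34.4 to 368 in its longer assembled form and from 7.98 to 173 in its shorter one. The division of reads between overlapping transcripts is an estimate of the assembler, so these levels are less certain than the gene's.

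Kif1b, a close relative that moves mitochondria and synaptic vesicle precursors (chr4:149176319-149307693, minus strand), measured 83.1, 103 and 120 FPKM at E10.5, then 188, 173 and 274 at E12.5, then 299, 361 and 252 at E14.5 and last 304, 377 and 338 at E16.5, with 236, 230 and 233 in whole body. It was below whole body at E10.5 (-1.20, adjusted p = 2.67e-05) and above it at E16.5 (0.54, adjusted p = 0.00888), a rise of 1.73 ± 0.17. Kif1b rose as well on the crystallin-free scale (1.26) but only to the level of whole body (0.01, adjusted p = 0.954). Kif3a, a subunit of the heterotrimeric kinesin-2 of intraflagellar transport (chr11:53567379-53601967, plus strand), held 75.9, 78.6 and 76.0 FPKM at E10.5, then 111, 130 and 141 by E12.5, then 163, 205 and 178 by E14.5, and finally 233, 242 and 227 at E16.5. Its levels rose in every interval and the stages did not overlap (1.60 ± 0.09, adjusted p = 5.1e-10, crystallin-free 1.12), and whole body was lower at 57.9, 53.6 and 52.4 FPKM. Within kinesin-2, Kif3a went from 56.7% of the summed Kif3a, Kif3b and Kif3c FPKM at E10.5 to 72.2% at E16.5 (41.6% in whole body), while Kif3b went from 27.8% to 14.6%.

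Kifc3, a minus-end motor of epithelial junctions and organelles, had another time course. It measured 8.17, 9.22 and 10.7 FPKM at E10.5, 5.5, 4.62 and 1.89 by E12.5 and 5.70, 3.78 and 2.70 by E14.5, before reaching 29.5, 36.8 and 25.7 at E16.5, with 11.9, 8.91 and 11.2 in whole body. It first fell (-1.13 ± 0.28) and then rose by 2.67 ± 0.28 between E14.5 and E16.5 (adjusted p = 2.43e-05). Most of its FPKM came from assembled transcripts that share only some splice junctions with the reference, and with reference-matching transcripts alone the E16.5 against E10.5 change was 0.36 and was not called.

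Kinesin-1, the general plus-end carrier, has 3 heavy chains, each from its own gene. Kif5b, present in nearly all tissues, measured 174, 206 and 195 FPKM at E10.5, then 166, 151 and 197 at E12.5, then 190, 203 and 163 at E14.5 and last 202, 229 and 217 at E16.5, with 200, 187 and 179 in whole body. The E10.5 and E16.5 libraries overlapped, and the change of 0.17 ± 0.10 was not called (adjusted p = 0.14). The crystallin-free value was -0.30. Kif5c rose from a mean of 115 to 192 FPKM (0.74 ± 0.13, crystallin-free 0.26), and between E10.5 and E12.5 alone it rose by 0.80 ± 0.13. Kif5a, the heavy chain most restricted to neurons, was low in lens at 9.30, 9.08 and 8.14 FPKM at E10.5, then 5.06, 5.59 and 4.34 by E12.5, then 4.57, 4.55 and 5.57 by E14.5, and finally 6.32, 5.52 and 3.68 at E16.5 (-0.70 ± 0.16, adjusted p = 0.00108). Whole body held 43.6, 44.6 and 47.4 FPKM, above every lens library (-2.23 at E10.5 and -2.93 at E16.5 against whole body). Kif5a made up 2.82% of kinesin-1 FPKM at E10.5, 1.27% at E16.5 and 12.0% in whole body.

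Kif21b, a motor that slows microtubule growth at the plus end, was the transport kinesin with the largest fall. It measured 43.8, 58.6 and 56.4 FPKM at E10.5, 35.2, 27.7 and 30.1 by E12.5 and 19.0, 15.4 and 15.1 by E14.5, before reaching 9.27, 10.1 and 14.7 at E16.5. Every stage lay below the one before, and whole body lay above all of them at 92.6, 94.8 and 102 FPKM. The change was -2.14 ± 0.15 (adjusted p = 8.77e-09) from E10.5 to E16.5. Its relative Kif21a rose by 0.82 over the same interval (crystallin-free 0.35). The sums of retinal markers (112 to 196 FPKM at E10.5, 11.4 to 26.4 at E16.5), endothelial markers (417 to 453, then 58.5 to 106) and macrophage markers (114 to 124, then 5.75 to 11.3) were also lower at E16.5. As single genes, 4 of 6 retinal, 5 of 6 endothelial and 8 of 8 macrophage markers fell. The other 2 retinal markers (Atoh7 and Hes5) and 1 endothelial marker (Tek) rose. The part of such cells in the fall of Kif21b was not tested.

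**Figure D3:**
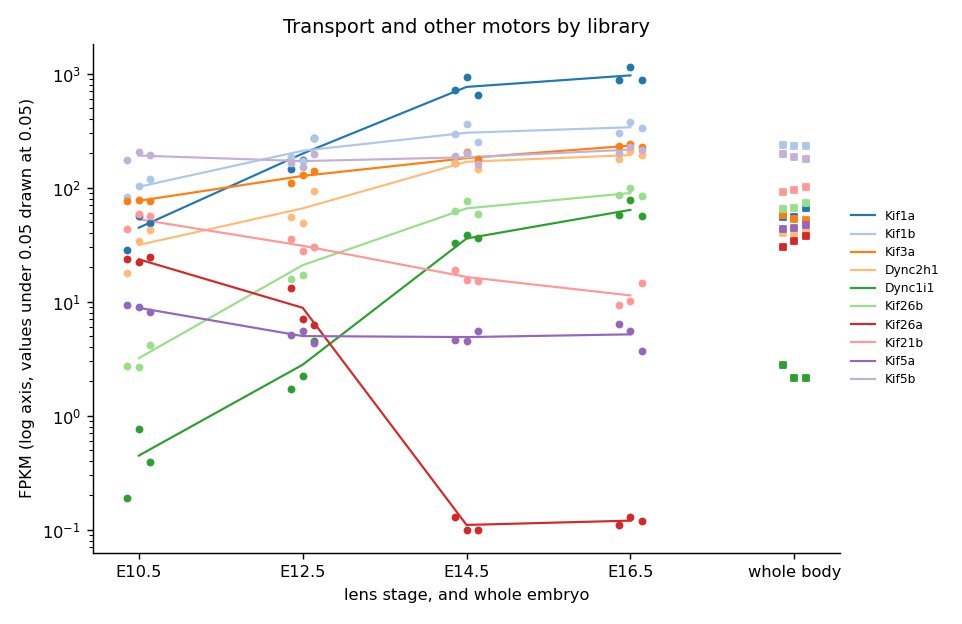
FPKM (log axis) of 10 motor genes, among them the transport kinesins Kif1a, Kif1b, Kif3a, Kif21b, Kif5a and Kif5b, with Kif26a, Kif26b, Dync1i1 and Dync2h1. Dots are lens libraries by stage, lines join stage means, squares are whole-body libraries, and values under 0.05 are drawn at 0.05. Kif1a and Dync1i1 climb far above whole body, Kif5b lies between 151 and 229 FPKM in the lens, and Kif26a drops to near 0.1 FPKM at E14.5.

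Within a library, summed transport and mitotic kinesin FPKM were similar at E10.5, and the transport sum was the higher at every later stage. The ratio of summed transport to summed mitotic FPKM was 0.829, 0.947 and 1.02 at E10.5, then 2.28, 2.83 and 4.15 at E12.5, then 6.53, 8.55 and 5.07 at E14.5 and last 11.01, 16.1 and 10.1 at E16.5, with 1.32, 1.36 and 1.38 in whole body. The ranges of the groups did not overlap, and every E10.5 library lay below whole body while every later lens library lay above it. The means were 0.930 ± 0.094, 3.09 ± 0.96, 6.72 ± 1.74 and 12.4 ± 3.23 from E10.5 to E16.5 (SD, n = 3). Kif1a went from 2.09% to 34.9% of the FPKM of both groups together. Without Kif1a the mean ratio was 0.889, 2.64, 4.26 and 7.66, and 1.29 in whole body, and there E12.5 (2.02 to 3.46) and E14.5 (3.32 to 5.28) overlapped. Because the lists were drawn up with earlier results known, no p value is given for the ratio.

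Of the ciliary and other kinesins, 8 were tested, and 4 rose, 3 fell and 1 (Kif2a) was not called at E16.5 against E10.5 (median 0.25). Crystallin-free values gave 3 rises and 4 falls with a median of -0.17. There Kif27 lost its call (0.40, then 0.04) and Kif2a fell (-0.37). The kinesin-11 pair Kif26a and Kif26b, which bind microtubules but lack usual motor activity, went opposite ways. Kif26a (chr12:112146208-112181747, plus strand) measured 23.5, 22.5 and 24.7 FPKM at E10.5, then 13.1, 7.12 and 6.28 by E12.5, then 0.13, 0.10 and 0.10 by E14.5, and finally 0.11, 0.13 and 0.12 at E16.5, with 30.5, 34.1 and 37.5 in whole body. It fell by 3.09 ± 0.20 between E12.5 and E14.5 alone (adjusted p = 5.01e-08), and by 4.45 ± 0.20 in all. Its E12.5 libraries had the same order as their summed periocular mesenchyme markers (769.6, 358 and 306 FPKM). At E10.5 the sums spread widely (300.4, 294 and 2147 FPKM), while Kif26a varied little (23.5, 22.5 and 24.7). Col1a1 and Col3a1 had by far the largest spread of the mesenchyme markers there (SD 728 and 357 FPKM, n = 3). Between E12.5 and E14.5, 5 of 6 mesenchyme markers (median -3.14), 8 of 8 macrophage markers (-2.59) and 5 of 6 endothelial markers (-2.06) fell, and their part in the fall of Kif26a was not tested. Kif26b (chr1:178529125-178939200, plus strand) held 2.74, 2.69 and 4.16 FPKM at E10.5, 15.8, 17.1 and 30.0 by E12.5 and 62.0, 76.9 and 58.9 by E14.5, before reaching 85.8, 100.1 and 83.9 at E16.5. It rose by 4.45 ± 0.20 (adjusted p = 4.15e-11), from far below whole body at E10.5 (-4.05 ± 0.20) to levels near the 64.7, 65.8 and 72.9 FPKM of whole body (0.40 at E16.5, adjusted p = 0.072). The coding sequences of the pair share 58.5% identity.

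Kif24 and Kif7, regulators of the primary cilium, both fell. Kif24, which holds back cilium assembly, measured 15.4, 17.3 and 16.1 FPKM at E10.5, then 7.93, 5.15 and 8.40 at E12.5, then 6.99, 4.88 and 5.57 at E14.5 and last 2.84, 1.06 and 4.94 at E16.5, against 22.7, 23.0 and 23.3 in whole body (-2.26 ± 0.28 from E10.5 to E16.5, adjusted p = 3.78e-06). The Kif24 call was lost with reference-matching transcripts alone (-1.09) and with its highest transcript alone (-1.63). Kif7, which acts in Hedgehog signalling at the cilium tip, fell from a mean of 19.6 to 6.61 FPKM (-1.44 ± 0.15). Kif6, a motor studied in motile cilia, was low and uneven at 0.88, 1.21 and 0.22 FPKM at E10.5, then 3.24, 2.60 and 3.96 by E12.5, then 0.01, 5.65 and 9.50 by E14.5, and finally 6.43, 5.23 and 7.46 at E16.5, and at most 0.78 in whole body. The E16.5 libraries lay above all E10.5 ones (2.09 ± 0.60, adjusted p = 0.00542), but E14.5 replicate 1 held almost none. Kif1bp, a regulator that binds kinesins, rose from 31.4 to 93.5 FPKM (1.55 ± 0.10). The untested Kif17, a homodimeric kinesin-2, was listed at 2.70, 0.01 and 0.94 FPKM at E10.5 and at most 0.37 at later stages, and Kif19a, a depolymerase of motile cilia, at most 0.53 in lens.

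Cytoplasmic dynein, the main minus-end motor, rose in 5 of its 7 subunits, and the others, Dync1i2 and Dync2li1, were not called. The median was 0.66. On the crystallin-free scale Dync1i1, Dync2h1 and Dync1li1 rose, Dync1i2 fell (-0.49) and the median was 0.18. The largest change was in the choice of intermediate chain, the subunit that binds dynactin. Dync1i1 (chr6:5725639-6028039, plus strand), the form best known from neurons, measured 0.19, 0.76 and 0.39 FPKM at E10.5, 1.71, 2.21 and 4.48 by E12.5 and 32.8, 38.8 and 36.1 by E14.5, before reaching 58.2, 77.7 and 56.0 at E16.5, with 2.76, 2.16 and 2.16 in whole body. It rose by 5.49 ± 0.23 (adjusted p = 2.78e-11), the largest change of any member, and crossed from below whole body (-1.23) to above it (4.26). The ubiquitous Dync1i2 had means of 119.8 FPKM at E10.5 and 119 at E16.5 and was not called (-0.01, adjusted p = 0.868). Dync1i1 thus went from 0.361% ± 0.209 of intermediate chain FPKM at E10.5 to 2.64% ± 1.37 by E12.5, then 24.2% ± 1.28 by E14.5, then 34.9% ± 4.28 at E16.5 (SD, n = 3), and was 1.51% in whole body.

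Dync1h1, the heavy chain that holds the motor domain (chr12:110601452-110666945, plus strand), measured 156, 198 and 296 FPKM at E10.5, then 270.1, 204 and 344 at E12.5, then 355, 383 and 376 at E14.5 and last 301, 337 and 355 at E16.5, with 347, 365 and 408 in whole body. The E10.5 libraries spread widely but lay below every E16.5 library (0.66 ± 0.20, adjusted p = 0.00732), and on the crystallin-free scale the change was 0.18 and not called. Dync1li1, a light intermediate chain that links cargo adaptors, rose from 51.0, 56.6 and 47.3 FPKM at E10.5, through 55.3, 56.1 and 63.9 at E12.5 and 77.2, 86.3 and 77.4 at E14.5, to 86.0, 90.6 and 77.5 at E16.5 (0.70 ± 0.08, adjusted p = 1.72e-06, crystallin-free 0.23). Its whole-body libraries all held between 58.3 and 58.8 FPKM.

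Dync2h1, the heavy chain of the dynein that returns cargo from the cilium tip (chr9:6928503-7184446, minus strand), rose as well. It measured 17.8, 34.4 and 42.3 FPKM at E10.5, then 55.1, 49.4 and 93.5 by E12.5, then 164, 196 and 147 by E14.5, and finally 179, 208 and 194 at E16.5, with 40.0, 40.2 and 41.7 in whole body (2.66 ± 0.26 from E10.5 to E16.5, adjusted p = 2.1e-07). Its light intermediate chain Dync2li1 was not called (0.26, adjusted p = 0.0637). The assembled transcript ENSMUST00000147193 carried most of the rise, from 0.65 to 113 FPKM. Dync1h1, Dync2h1, Kif1a and Kif1b all have main transcripts over 8 kb and were lowest in E10.5 replicate 1. The 696 tested genes of such length deviated from the group mean by a median of -0.119, 0.001 and 0.109 (log2) in the E10.5 libraries, the same order as Dync1h1 and Dync2h1 there, and the part of length in their spread was not tested. Over E16.5 against E10.5, those genes had a median change of 0.03.

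Of the 6 dynactin subunits, 5 rose, Dctn4 was not called and the median was 0.75. Without crystallins in the totals 4 rose, the median was 0.28, and Dctn5 (0.20, then -0.27) and Dctn4 (-0.06, then -0.53) fell. The 4 rises shrank to 0.23 for Dctn1, 0.34 for Dctn2, 0.59 for Dctn3 and 0.32 for Dctn6. Dctn1, the large subunit that grips both dynein and the microtubule (chr6:83165920-83200117, plus strand), measured 123, 128 and 139 FPKM at E10.5, 149.9, 155 and 166 by E12.5 and 176, 204 and 182 by E14.5, before reaching 218, 221 and 200.4 at E16.5, with 145, 145 and 152 in whole body (0.71 ± 0.07, adjusted p = 3.02e-07). Dctn2, the shoulder subunit dynamitin, went from 132, 139.5 and 142 FPKM at E10.5 to 155, 174 and 175, then 203, 215 and 223, then 245, 252 and 231 at the later stages in order, with 134, 133 and 141 in whole body (0.81 ± 0.06, adjusted p = 2.62e-08). Neither gene's stages E10.5, E12.5 and E14.5 overlapped, and the last step was not called for either. The shoulder subunit Dctn3 had the largest change of the complex, from 20.6, 21.2 and 22.9 FPKM at E10.5, through 29.2, 33.3 and 32.8 at E12.5 and 48.7, 42.3 and 40.5 at E14.5, to 45.0, 50.2 and 42.7 at E16.5, with 16.9, 17.1 and 16.7 in whole body (1.06 ± 0.09). Dctn6, at the pointed end, rose from 22.6, 26.8 and 24.97 FPKM, through 29.6, 32.3 and 32.6 (E12.5) and 43.8, 41.2 and 40.2 (E14.5) to 41.1, 44.7 and 44.4 at E16.5, with 25.5, 27.1 and 24.5 in whole body (0.79 ± 0.08).

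Alpha and beta tubulins, the building blocks of the microtubule, changed in composition. Of 11 isotypes, 6 rose, 4 fell and Tuba4a was not called. Crystallin-free values gave 5 rises and 4 falls, and the median went from 0.31 to -0.16. The summed alpha tubulin FPKM had a mean of 1381 at E10.5 and 3246 at E16.5 (910.2 in whole body), while the summed beta tubulin FPKM was 2653 at E10.5 and 2347 at E16.5 (2837 in whole body).

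Tuba1a, the main alpha tubulin of developing neurons (chr15:98949837-98953703, minus strand), was the most abundant alpha isotype throughout, with a growing share. It measured 773, 973 and 856 FPKM at E10.5, then 1669, 1936 and 1957 at E12.5, then 3191, 3173 and 2777 at E14.5 and last 3109, 3130 and 2891 at E16.5, with 669, 661 and 633 in whole body (1.81 ± 0.12, adjusted p = 2.46e-09). The change was 1.34 on the crystallin-free scale and 0.69 under quantile normalization. Its share of alpha tubulin FPKM went from 62.8% to 85.3%, 92.9% and 93.7% (71.9% in whole body). Tuba1b, the general alpha isotype (chr15:98931425-98934565, minus strand), fell from 403, 508 and 467 FPKM at E10.5, through 322, 282 and 261 (E12.5) and 219, 211 and 224 (E14.5) to 188, 179 and 202 at E16.5 (-1.27 ± 0.11, adjusted p = 5.29e-08). At E10.5 it had been above whole body, which held 251, 198 and 196 FPKM (1.10 ± 0.11). Tuba1c fell furthest, from 41.9, 50.7 and 50.6 FPKM through 27.1, 18.0 and 15.6 (E12.5) and 7.34, 6.50 and 8.01 (E14.5) to 4.85, 4.51 and 7.99 at E16.5 (-2.87 ± 0.20, adjusted p = 5.67e-09), with 33.3, 27.8 and 29.4 in whole body. The coding sequences of Tuba1a and Tuba1b are 98.3% identical and those of Tuba1a and Tuba1c 97.2%, so the division of reads among them is uncertain.

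Among beta tubulins, Tubb5, the isotype of most dividing tissues (chr17:35833921-35838306, minus strand), gave way to others. It measured 1959, 2265 and 2198 FPKM at E10.5, then 1569, 1556 and 1501 by E12.5, then 1111, 1243 and 1478 by E14.5, and finally 1102, 1142 and 1233 at E16.5, against 2122, 2024 and 2171 in whole body (-0.88 ± 0.12, adjusted p = 7.33e-06). Crystallin-free values gave a change of -1.36 and quantile normalization -2.83. Its share of beta tubulin FPKM went from 80.7% at E10.5 to 67.4%, 55.9% and 49.4% (74.2% in whole body), yet it stayed the most abundant beta isotype at every stage. Tubb4b, a widely expressed isotype also used in cilia, rose from 271, 289.8 and 288 FPKM through 327, 401 and 386 (E12.5) and 485, 531 and 573 (E14.5) to 558, 617 and 536 at E16.5 (1.01 ± 0.09, crystallin-free 0.53, quantile 0.39), and whole body was lower at 169.6, 149.6 and 166. Its share went from 10.7% to 24.3% (5.70% in whole body).

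Tubb2a (chr13:34074274-34078007, minus strand) had the largest rise of any tubulin. Its libraries held 22.9, 22.1 and 22.3 FPKM at E10.5, 53.2, 71.4 and 81.6 by E12.5 and 121, 153 and 158 by E14.5, before reaching 228, 228 and 203 at E16.5, with 66.6, 64.1 and 69.9 in whole body. No stages overlapped, and the change was 3.23 ± 0.13 (adjusted p = 1.26e-11), a ratio of means of 9.79. Tubb6, a minor isotype of many non-neuronal cells, rose from 45.2, 49.8 and 54.9 FPKM through 67.9, 80.3 and 96.5 (E12.5) and 138, 171 and 160.1 (E14.5) to 179, 199 and 173 at E16.5 (1.86 ± 0.12), with 34.7, 37.2 and 34.9 in whole body. Tubb2b, the close relative of Tubb2a in migrating neurons, measured 113, 138 and 136 FPKM at E10.5, then 132, 150.3 and 163 at E12.5, then 117, 138 and 125 at E14.5 and last 162, 163 and 153 at E16.5, against 434, 393 and 409 in whole body. It was below whole body at every stage (-1.68 at E10.5, -1.37 at E16.5). Its change of 0.31 ± 0.09 within the lens turned to -0.17 on the crystallin-free scale and to -0.25 with reference-matching transcripts alone. Coding sequences of Tubb2a and Tubb2b are 96.5% identical.

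Tubb1, the isotype of platelets and their precursors, was low and followed another course, with 4.18, 3.47 and 4.19 FPKM at E10.5, then 11.52, 8.03 and 5.75 by E12.5, then 1.32, 0.93 and 1.04 by E14.5, and finally 0.70, 0.37 and 0.17 at E16.5, against 7.72, 8.89 and 8.46 in whole body (-1.82 ± 0.20 from E10.5 to E16.5). Erythroid markers had the same order of stages, with sums of 1558 to 3675 FPKM at E10.5, 3073 to 6703 at E12.5, 136 to 328 at E14.5 and 68.5 to 144 at E16.5. The part of blood cells in the Tubb1 values was not tested.

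**Figure D4:**
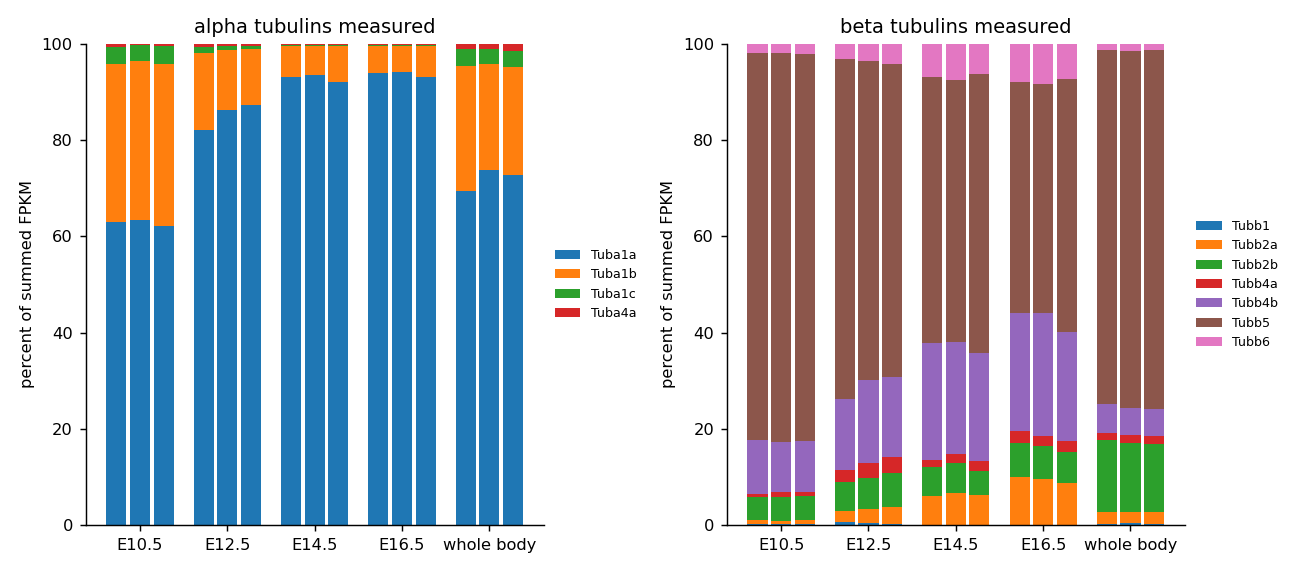
Share of each isotype in the summed FPKM of alpha tubulins and of beta tubulins (percent, stacked to 100), with 1 bar per library. In alpha tubulin, Tuba1a grows from 62.8% at E10.5 to 93.7% at E16.5. In beta tubulin, Tubb5 shrinks from 80.7% to 49.4% as Tubb4b, Tubb2a and Tubb6 grow.

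Gamma tubulin nucleates microtubules within a ring of gamma-tubulin complex proteins, and delta and epsilon tubulin belong to centrioles. Of these 9 genes, 2 rose, 5 fell and 2 (Tubgcp2 and Tubgcp5) were not called (median -0.50). Crystallin-free values gave 1 rise, that of Tubg2, and 7 falls with a median of -0.97, and Tubgcp2 (-0.48) and Tubgcp5 (-0.28) were among the falls. Tubg1, the main gamma tubulin (chr11:101119938-101126419, plus strand), held 68.4, 77.4 and 76.8 FPKM at E10.5, 68.9, 82.5 and 78.1 by E12.5 and 73.5, 77.4 and 93.2 by E14.5, before reaching 92.4, 90.5 and 95.4 at E16.5, against 54.2, 55.0 and 58.3 in whole body. Its change of 0.32 ± 0.09 turned to -0.15 on the crystallin-free scale. Tubg2, the minor copy (chr11:101155907-101161787, plus strand), rose from 2.11, 1.80 and 0.82 FPKM through 3.27, 4.96 and 4.35 (E12.5) and 6.26, 3.92 and 5.73 (E14.5) to 10.4, 9.24 and 8.82 at E16.5, with 1.55, 2.39 and 2.63 in whole body (2.06 ± 0.22, adjusted p = 7.56e-07). Tubg2 thus went from 2.11% to 9.29% of gamma tubulin FPKM, although 93.3% coding identity with Tubg1 leaves the split uncertain.

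The ring protein Tubgcp3 measured 76.9, 81.0 and 71.4 FPKM at E10.5, then 56.5, 58.0 and 54.0 at E12.5, then 45.4, 48.6 and 44.5 at E14.5 and last 45.0, 42.2 and 43.1 at E16.5, with 64.9, 59.9 and 61.6 in whole body (-0.80 ± 0.06, adjusted p = 2.96e-08). It moved from above whole body to below it. Tubgcp4 (-0.80 ± 0.11) and Tubgcp6 (-0.50 ± 0.07) fell too. Tubd1 fell from 4.10, 5.67 and 4.43 FPKM through 3.88, 3.37 and 4.25 (E12.5) and 2.16, 2.14 and 2.66 (E14.5) to 1.45, 2.59 and 0.98 at E16.5 (-1.14 ± 0.19), and whole body held 5.38, 5.09 and 5.98. Tube1 fell from 18.0, 17.2 and 12.97 FPKM through 10.03, 10.6 and 8.17 (E12.5) and 8.91, 9.74 and 9.49 (E14.5) to 6.64, 6.65 and 10.1 at E16.5 (-0.97 ± 0.16), with 12.7, 12.5 and 12.0 in whole body.

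Against whole body, the shares of members called higher or lower were within 10 percentage points of those of all genes at each stage. At E10.5, 16 of 71 (22.5%) were higher and 21 (29.6%) lower, where 24.6% and 31.2% of all genes were. At E12.5, 20 were higher and 33 (46.5%) lower, beside 32.3% and 37.1% (69.4% in either direction), though with reference-matching transcripts alone the lower count was 21, and at E14.5 again 20 and 33, beside 35.7% and 42.6% (78.3%). At E16.5, 27 (38.0%) were higher and 32 (45.1%) lower, beside 36.8% and 43.4% (80.2%). On the crystallin-free scale the E16.5 split was 17 higher (23.9%) and 45 lower (63.4%), beside 23.4% and 60.1% of all genes. It was 14 and 47 at E14.5, beside 23.5% and 58.0%, and 13 and 39 at E12.5, beside 24.9% and 45.9%. These comparisons share their 3 whole-body libraries. The highest differences at E16.5 were those of Dync1i1 (4.26), Kif1a (3.997) and Kif6 (2.56), and the lowest those of Kif26a (-4.96), Kif21b (-3.003) and Kif5a (-2.93).

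Between consecutive stages, 24 members rose and 30 fell from E10.5 to E12.5, beside 29.5% and 26.0% of all genes, and the members' share that fell was 42.3%. From E12.5 to E14.5, 20 rose and 21 fell, beside 21.2% and 22.4%, and crystallin-free values gave 12 and 33, beside 11.2% and 40.8%. From E14.5 to E16.5, 10 rose and 10 fell (14.1% each), beside 5.97% and 4.03%, with a crystallin-free split of 7 and 13, beside 4.6% and 8.5%. Those that fell were 8 mitotic kinesins, Kif21b and Kif2a, and those that rose came from 4 roles, with Kifc3 the largest (2.67). The count that rose at this last step depends on single libraries. It was 3 without E14.5 replicate 1 or without E14.5 replicate 3, and 4, 2 and 5 without E16.5 replicates 1, 2 and 3. Without whole-body replicates 2 and 3, which enter only through the shared spread, it was 6 and 5.

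**Figure D5:**
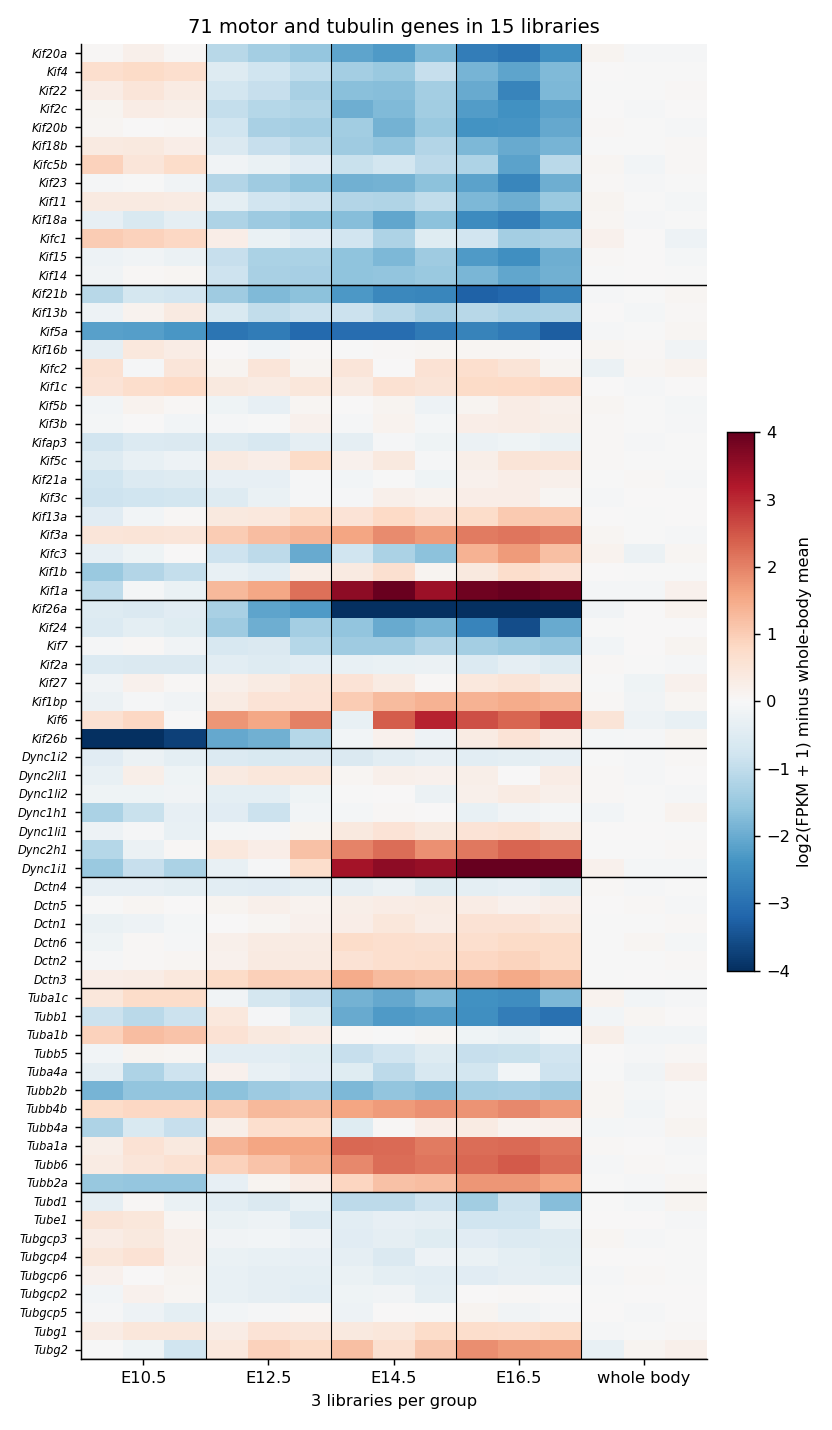
Level of the 71 tested members in each of the 15 libraries, as log2(FPKM + 1) minus the whole-body mean of that gene, coloured from -4 to 4. Members are ordered by role and libraries by group. The block of mitotic kinesins turns from near 0 at E10.5 to below whole body at E16.5, while Kif1a, Dync1i1 and Dync2h1 turn above it. Kif3a is above whole body from E10.5 on and rises further.

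Partners of the motors and tubulins were listed by role as well. Of 27 spindle partners, 23 fell, 3 rose (Ckap5, Spag5 and Haus8) and Haus1 was not called at E16.5 against E10.5 (median -2.07). The shares of all genes were 36.7% lower and 37.2% higher. Crystallin-free, 2 rose and 24 fell (median -2.54), beside 23.5% and 53.5% of all genes. Plk1, a mitotic kinase, fell from 122, 143 and 135 FPKM at E10.5 to 23.5, 22.6 and 26.3 at E16.5 (-2.42 ± 0.12). Cenpe, a kinesin of the kinetochore whose symbol the naming rule does not match, fell from 154, 172 and 185 FPKM to 27.9, 27.3 and 40.5 (-2.40 ± 0.15), and Aurka, another mitotic kinase, from 98.4, 112 and 93.4 to 20.9, 15.8 and 22.0 (-2.32 ± 0.13). Each of these falls lay within the range of the mitotic kinesins.

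Of 30 motor light chains and cargo adaptors, 18 rose, 9 fell and 3 were not called (median 0.28), beside 37.2% and 36.7% of all genes. Crystallin-free, 12 rose and 16 fell (median -0.20), beside 23.5% and 53.5% of all genes (median -0.39). The sign of this list's median thus depends on the scale. Dynlt3, a dynein light chain, rose from 8.65, 9.40 and 7.87 FPKM at E10.5 to 94.4, 103 and 89.5 at E16.5 (3.33 ± 0.12), and Trak1, which ties kinesin-1 to mitochondria, from 33.5, 33.3 and 36.8 to 209, 219 and 205 (2.58 ± 0.12). Spdl1, a dynein adaptor of the kinetochore, fell from 33.2, 34.3 and 33.9 FPKM to 7.58, 6.19 and 8.35 (-2.06 ± 0.14).

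Of 38 microtubule-associated and tubulin-folding proteins, 21 rose (55.3%), 6 fell (15.8%) and 11 were not called (median 0.51), beside 37.2% and 36.7% of all genes. Crystallin-free, 15 rose and 14 fell (median 0.04), beside 23.5% and 53.5% of all genes (median -0.39). Map6, which stabilises microtubules against cold, rose from 3.94, 6.24 and 6.72 FPKM at E10.5 to 161, 173 and 156 at E16.5 (4.66 ± 0.18). Mapre3, a protein of growing plus ends, rose from 18.7, 15.7 and 13.7 FPKM to 134, 140.0 and 125 (2.98 ± 0.14). Clip1, another plus-end protein, fell from 75.5, 95.4 and 88.7 FPKM to 17.3, 15.7 and 12.7 (-2.44 ± 0.15).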

How the data were processed

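The deposited values are FPKM for each transcript that the authors assembled. The submitters' processing notes name the tools TopHat2 2.0.9, Trimmomatic, Cuffnorm and Cufflinks and the build mm10. The order and settings of these steps and the read depth are not given in the sources used here, so no interval that depends on depth can be given. Transcripts on the strand opposite to a gene (class x) were left out, and FPKM was summed per symbol. The members had 258 transcripts, 152 matching a reference transcript and 106 sharing only some junctions (class j). Whether the counting used strand is not given.

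Genes were kept if they reached 1 FPKM in 3 or more of the 15 libraries, and 3 genes at 0 beside a replicate of at least 50 FPKM were left out, none of them a member. limma 3.58.1 (R 4.3.3) was run on log2(FPKM + 1) over 14532 genes, with 1 mean per group, all 15 libraries, a trended prior and 10 residual degrees of freedom, and was tested on simulated data. Members, role lists, marker lists and companion lists were chosen with earlier results of these data known. The members shown per library are those with the largest E16.5 against E10.5 changes in each role, the most abundant ones, those furthest from whole body, and a few fixed by name. The mitotic kinesins whose promoters are printed were chosen for their motif matches after these were seen. Alternatives covered the pseudocount, the filter, 3 rescalings, the way transcripts were summed, a replicate block, smaller fits and leaving out each library. Coordinates are from GENCODE vM21 and promoters from RefSeq GRCm38.p6. Coding identity is from the edit distance between the longest annotated coding sequences of each pair in the GENCODE vM21 transcript sequences. Figures were drawn with matplotlib 3.10.9.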

Additional observations from a re-analysis of the deposited data

Results flagged for a closer look

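For 14 members the lens differed from whole body in opposite directions at E10.5 and E16.5. The change from E10.5 to E16.5, given in parentheses, is the difference of those values and so adds no separate evidence. The 8 that went from above whole body to below it were Kif4 (-2.61), Kif18b (-2.24), Kifc5b (-2.20), Kif11 (-2.10), Kifc1 (-2.07), Tuba1c (-2.87), Tubgcp3 (-0.80) and Tubgcp4 (-0.80). On the crystallin-free scale all 8 were still below whole body at E16.5, while Kif11 and Kif18b were no longer called above it at E10.5. The 6 that went from below to above were Dync1i1 (5.49), Tubb2a (3.23), Kif1b (1.73), Kif21a (0.82), Kif5c (0.74) and Dctn1 (0.71). Of these, Dync1i1 (3.81) and Tubb2a (1.18) were above whole body at E16.5 on the crystallin-free scale. Kif1b (0.01), Dctn1 (0.01) and Kif5c (-0.12) were not called there, and Kif21a was below it (-0.32, adjusted p = 6.37e-04). The whole-body libraries are labelled with the early days only, so age and tissue cannot be told apart at E16.5.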

How the results depend on the processing

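For 50 selected changes of single members under 27 alternatives each, 1334 of 1350 values kept their direction and their side of the threshold. The fall of all 13 mitotic kinesins and the rise of 10 transport kinesins at E16.5 against E10.5 held with each library left out. Among these, reversed changes from E10.5 to E16.5 were Kif5b (-0.33 under quantile normalization, -0.30 on the crystallin-free scale), Tubb2b (-0.10 under quantile normalization, -0.17 on the crystallin-free scale, -0.25 with exact reference transcripts or with the highest transcript in place of the sum) and Tubg1 (-0.15 on the crystallin-free scale). Outside them, Dctn5 (-0.27), Kif3b (-0.15), Kifap3 (-0.07) and Dync1li2 (-0.05), called higher before, were also below 0 on the crystallin-free scale. So were Kif1c (-0.36), Kif2a (-0.37), Kifc2 (-0.32), Tubgcp5 (-0.28), Dync2li1 (-0.19) and Tuba4a (-0.16), which had been above 0 but uncalled. Calls were lost for Kifc3 (0.36 and 0.77), Kif24 (-1.09 and -1.63) and Kif5a (-0.39 under both) with exact or highest transcripts, for Dync1h1 (0.12 and 0.18) under quantile normalization and on the crystallin-free scale, and for Tubg1 (0.05) under quantile normalization. The cause of these was not tested.

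Among counts of members, those higher than whole body went from 20 to 13 at E12.5 and from 27 to 17 at E16.5 on the crystallin-free scale, and those lower at E12.5 from 33 to 21 with exact transcripts. The count that fell from E10.5 to E12.5 went from 30 to 19 with the highest transcript. From E12.5 to E14.5 the count that rose went from 20 to 13 (quantile) and 12 (crystallin-free). The count that fell went from 21 to 33 (crystallin-free), 11 (exact transcripts), 10 (highest transcript), 10 (only the compared groups fitted) and 11 with E10.5 replicate 3 and E12.5 replicate 1 left out, an alternative chosen after seeing the data. From E14.5 to E16.5 the count that rose went from 10 to 6 (quantile), 4 (exact), 2 (highest) and 2 (only the compared groups). The count that fell went from 10 to 0 in limma on only the compared groups, where 13 members were lower at an unadjusted p under 0.05. With each library left out, the counts higher and lower ran from 13 to 17 and 16 to 22 (E10.5 against whole body), 16 to 21 and 28 to 35 (E12.5), 19 to 21 and 32 to 35 (E14.5), 25 to 29 and 31 to 33 (E16.5), 23 to 25 and 29 to 32 (E12.5 against E10.5), 15 to 22 and 14 to 22 (E14.5 against E12.5), 2 to 12 and 7 to 13 (E16.5 against E14.5), and 31 to 33 and 28 to 29 (E16.5 against E10.5). Replicate numbers did not pair the libraries (30 pairs, r from -0.0946 to 0.2373), and with a replicate block 31 members rose and 28 fell at E16.5 against E10.5, with no other count moved by over 1.5 times.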
